A study of Mus musculus with 35 samples.

Results

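Mouse liver miRNAs were compared between post-treatment day (PTD) 7 and PTD 3 after a single injection of N-ethyl-N-nitrosourea (ENU). The comparison took the 5 samples whose titles give ENU and day 7 and the 5 whose titles give ENU and day 3, which are 10 of the 35 samples of the series. All 10 mice were 6-month-old female Big Blue transgenic mice, which carry a bacterial reporter gene for counting mutations, and all had received the same intraperitoneal dose of 120 mg/kg ENU. As described, the mice differed only in the day of sacrifice, while their arrays also differed in run day, as given below. The vehicle controls, 7 mice of the same age, sex and strain given DMSO and labelled day 1 or day 30, entered no test here, and their levels are quoted as a background. Each array measured 376 miRNAs in small RNA from a piece of whole liver of 1 mouse, so that a change in the share of a cell type and a change in RNA per cell cannot be told apart.

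ENU is an alkylating agent that transfers ethyl groups to DNA bases, and it is used as a genotoxic carcinogen and mutagen. A miRNA guides Argonaute proteins to messenger RNAs, mainly by base pairing through its seed near the 5′ end, and lowers the output of the messengers it pairs with. The miR-34 family is transcribed under p53 after DNA damage. The comparison of PTD 7 with PTD 3 asks whether miRNA levels 7 days after the dose differed from those 3 days after it.

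The mature sequences of the miRNAs on which the results turn are given here from RefSeq (GRCm38.p6), 5′ to 3′, with the seed (bases 2 to 8) in capitals. They are shown because 3 of them come from the same cluster, 4 carry the seed of the DNA damage family, and 3 are the miRNAs called higher at PTD 7. Of 13 names looked up, 10 were matched. The first 3 lie in the cluster of Mir183, Mir96 and Mir182, whose hairpins span chr6:30165918-30169737 on the minus strand, each annotated as a miRNA gene of its own.
miR-183: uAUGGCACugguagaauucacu
miR-96: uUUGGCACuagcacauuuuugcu
miR-182: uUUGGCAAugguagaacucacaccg
miR-34a: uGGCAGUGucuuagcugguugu
miR-34b-5p: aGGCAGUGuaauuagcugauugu
miR-449a: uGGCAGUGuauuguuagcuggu
miR-449c: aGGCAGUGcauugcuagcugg
miR-743b-5p: uGUUCAGAcugguguccauca
miR-465a-5p: uAUUUAGAauggcacugauguga
miR-380-3p: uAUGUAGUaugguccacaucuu
The seed GGCAGUG was shared by miR-34a, miR-34b-5p, miR-449a and miR-449c, which are encoded on chromosomes 4, 9 and 13, while the other 6 miRNAs each had a seed of their own. miR-34c, miR-449b and miR-464 are the 3 named only.

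Expression is given as -ΔCt. The threshold cycle (Ct) of a well is the point in the PCR where its signal passes a set level, and ΔCt is that value less the average Ct of 4 reference RNAs (snoRNA251, snoRNA202, snoRNA142 and U6) on the same array. A higher -ΔCt stands for more RNA, and a difference of 1 is a 2-fold change, so that differences below are on the log2 scale and are PTD 7 minus PTD 3. Assays differ in efficiency, so that -ΔCt was compared between arrays for each assay, and scarce and abundant stand below only for a mean Ct above 30 or not above 30 in the assay of that miRNA. A differentially expressed miRNA (DEM) had an unadjusted limma p under 0.01 and a fold change above 2. miR-122, the defining miRNA of hepatocytes, was measured at a mean Ct of 14.5, and its -ΔCt lay between 6.70 and 8.34 in the 10 arrays, while all 13 miRNAs listed for embryonic stem cells had a mean Ct above 30.

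The arrays of PTD 3 were not alike. In replicates 1 and 2 of PTD 3 the Ct of the first reverse transcription control well was 0.29 and 0.19 cycles below that of the second, whereas in replicates 3 to 5 it was 0.17, 0.17 and 0.15 cycles above it. In the PTD 7 arrays the first well was 0.11, 0.18, 0.12 and 0.10 cycles above the second in replicates 1 to 4 and 0.02 cycles below it in replicate 5. Replicates 1 to 4 of PTD 3 were run on 1 day, and replicate 5 of PTD 3 was run on the next day together with all 5 arrays of PTD 7, so that run day and PTD overlap in a single PTD 3 array. Results are therefore given with all 5 PTD 3 arrays, and for the DEMs and a part of the other miRNAs also with replicates 3 to 5 or replicates 1 and 2 alone. Within the shared run day PTD 7 is set against that array alone, which is then assumed to vary like the others, and 289 of all 376 miRNAs were higher at PTD 7 (76.9%), with a median difference of 0.25. The 4 miRNAs called below were not among the DEMs of that comparison (8 DEMs) or of a fit with the run day as a block (5 DEMs), both of which include a single aberrant well of miR-876-3p, and with 1 array in an arm the loss of a call says little, so that their differences within the shared run day are given with each. With the control well difference as a covariate 3 of the 4 were called (3 DEMs).

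**Figure D1:**
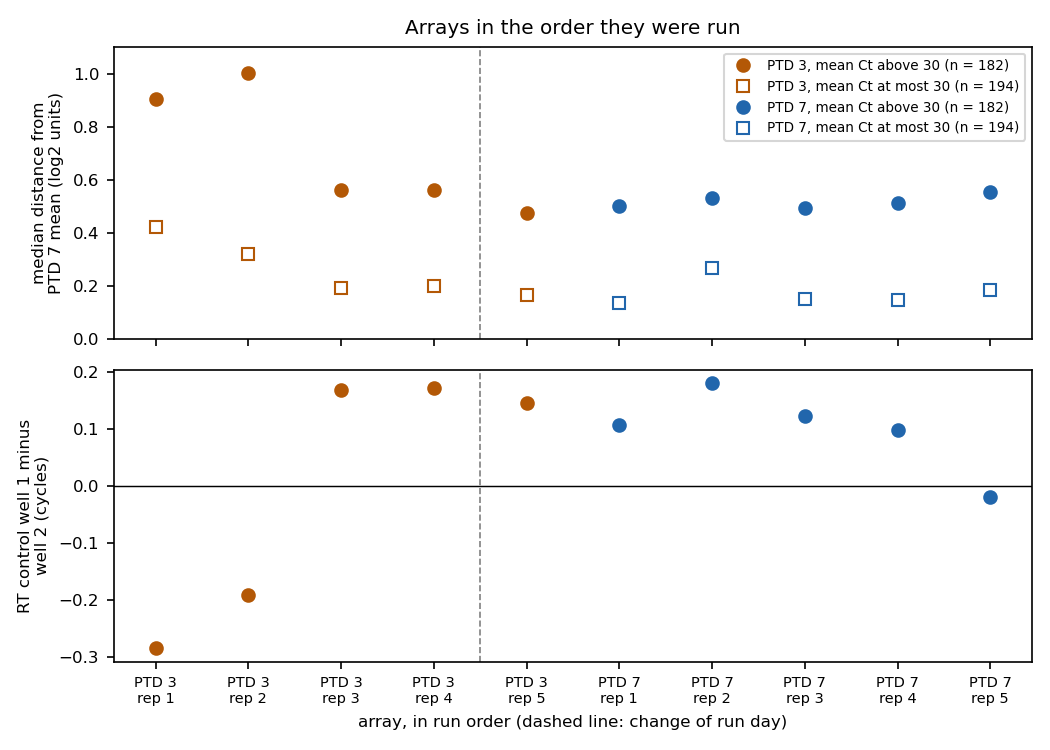
The 10 arrays in the order they were run, PTD 3 in brown and PTD 7 in blue, with a dashed line at the change of run day. The upper panel gives the median distance of an array from the PTD 7 mean in log2 units after centring, for miRNAs with a mean Ct above 30 (filled circles) and at most 30 (open squares), and replicates 1 and 2 of PTD 3 are the highest for both. A PTD 7 array is set against the mean of the other PTD 7 arrays. The lower panel gives the Ct of the first minus the second reverse transcription control well, which was lowest in the same 2 arrays.

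limma called 4 of 376 miRNAs as DEMs between PTD 3 and PTD 7 (1.06%), with 3 up-regulated at PTD 7 (0.798%) and 1 down-regulated (0.266%), and no miRNA passed after Benjamini-Hochberg adjustment of the limma p values. A p under 0.01 alone allows about that share of 1.06% when nothing differs. The up-regulated DEMs were miR-743b-5p, miR-465a-5p and miR-380-3p, and the down-regulated DEM was miR-464. All 4 were scarce, with a mean Ct above 30. Of all miRNAs 18 had an unadjusted p under 0.05 (4.79%), which is no more than that threshold allows when nothing differs, and 16 of them were higher at PTD 7 (4.26%) and 2 lower (0.532%). The same thresholds gave 1 DEM by the test that the methods name, miR-380-3p, and 1 by the exact permutation test, miR-743b-5p. Over all 376 miRNAs the median log2 difference was 0.11, with 232 higher and 144 lower at PTD 7.

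**Figure D2:**
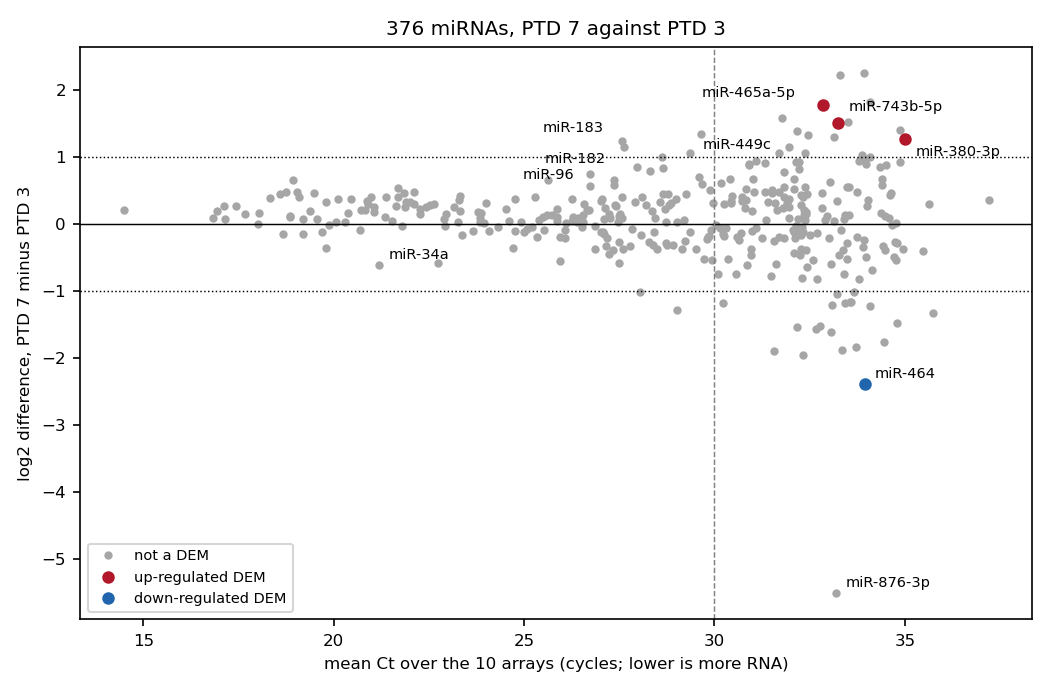
The log2 difference of PTD 7 minus PTD 3 (n = 5 each) against the mean Ct of the 10 arrays for 376 miRNAs, with up-regulated DEMs in red and the down-regulated DEM in blue. Dotted lines mark 2-fold and the dashed line a mean Ct of 30. The differences spread with rising Ct, the 4 DEMs all lie beyond a Ct of 30, and the point of miR-876-3p rests on a single well with a Ct of 9.78.

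miR-743b-5p and miR-465a-5p are encoded on the X chromosome, in a region of miRNA genes expressed mainly in testis. The hairpins of Mir743b and Mir465 lie within 61.9 kb on the minus strand. miR-743b-5p was at -12.54, -11.25, -12.96, -11.05 and -11.43 in replicates 1 to 5 of PTD 3 and at -10.53, -10.64, -10.79, -10.33 and -9.39 at PTD 7. The 5 arrays of PTD 7 were all above the 5 of PTD 3, which held for 1 miRNA of 376 (0.266%). When nothing differs, 1 of the 252 splits of 5 against 5 gives this order, so that the share is no more than expected. The difference was 1.51 ± 0.44 (SE, limma p = 0.00513, adjusted p = 0.616, exact permutation p = 0.00794, the smallest that 5 against 5 can give and a restatement of the lack of overlap). The DMSO controls spanned both groups, from -13.11 to -8.69. The difference was 1.48 against replicates 3 to 5 of PTD 3, 1.56 against replicates 1 and 2, and 1.09 within the shared run day.

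miR-465a-5p was at -11.86, -12.93, -12.16, -10.32 and -10.61 at PTD 3 and at -9.38, -10.76, -9.76, -10.34 and -8.77 at PTD 7. The groups overlapped through replicates 4 and 5 of PTD 3. The difference was 1.78 ± 0.55 (SE, limma p = 0.00723, adjusted p = 0.616, exact permutation p = 0.0397), with 2.60 against replicates 1 and 2 of PTD 3, 1.23 against replicates 3 to 5, and 0.81 within the shared run day. Of the 17 miRNAs listed for this X-linked cluster, 8 were higher and 9 lower at PTD 7, with a median of -0.19. The 2 DEMs were 2 of 17, where 0.798% of all 376 miRNAs were up-regulated. Within the shared run day 13 of the 17 were higher (76.5%), with a median of 0.32, close to the 76.9% and 0.25 of all 376.

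miR-380-3p, from the imprinted Dlk1-Dio3 cluster on chromosome 12, was at -14.01, -13.18, -12.81, -13.45 and -14.00 at PTD 3 and at -11.94, -13.07, -12.26, -12.48 and -11.33 at PTD 7. Only replicate 2 of PTD 7 lay within the range of PTD 3. The difference was 1.27 ± 0.38 (SE, limma p = 0.00611, adjusted p = 0.616, exact permutation p = 0.0159), and it was 1.20 against replicates 3 to 5 of PTD 3, 1.38 against replicates 1 and 2, and 1.79 within the shared run day. Its mean Ct was the latest of the 4 DEMs. The cluster is a long array of miRNA genes read from the maternal chromosome, and of its 44 listed members 21 were higher and 23 lower, with a median of -0.07 that was 0.36 within the shared run day, with 32 higher (72.7%), where 76.9% of all 376 were higher.

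miR-464 was at -9.05 and -8.95 in replicates 1 and 2 of PTD 3, at -11.17, -10.69 and -13.12 in replicates 3 to 5, and at -12.00, -13.58, -13.89, -13.35 and -12.07 at PTD 7. The values of PTD 3 ran from far above PTD 7 to within it. The difference was -2.38 ± 0.75 (SE, limma p = 0.00834, adjusted p = 0.616, exact permutation p = 0.0317). It was -3.98 against replicates 1 and 2, -1.32 against replicates 3 to 5, and 0.14 against replicate 5, the array run on the same day as PTD 7. The control mean was -9.69 ± 1.63 (SD, n = 7).

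**Figure D3:**
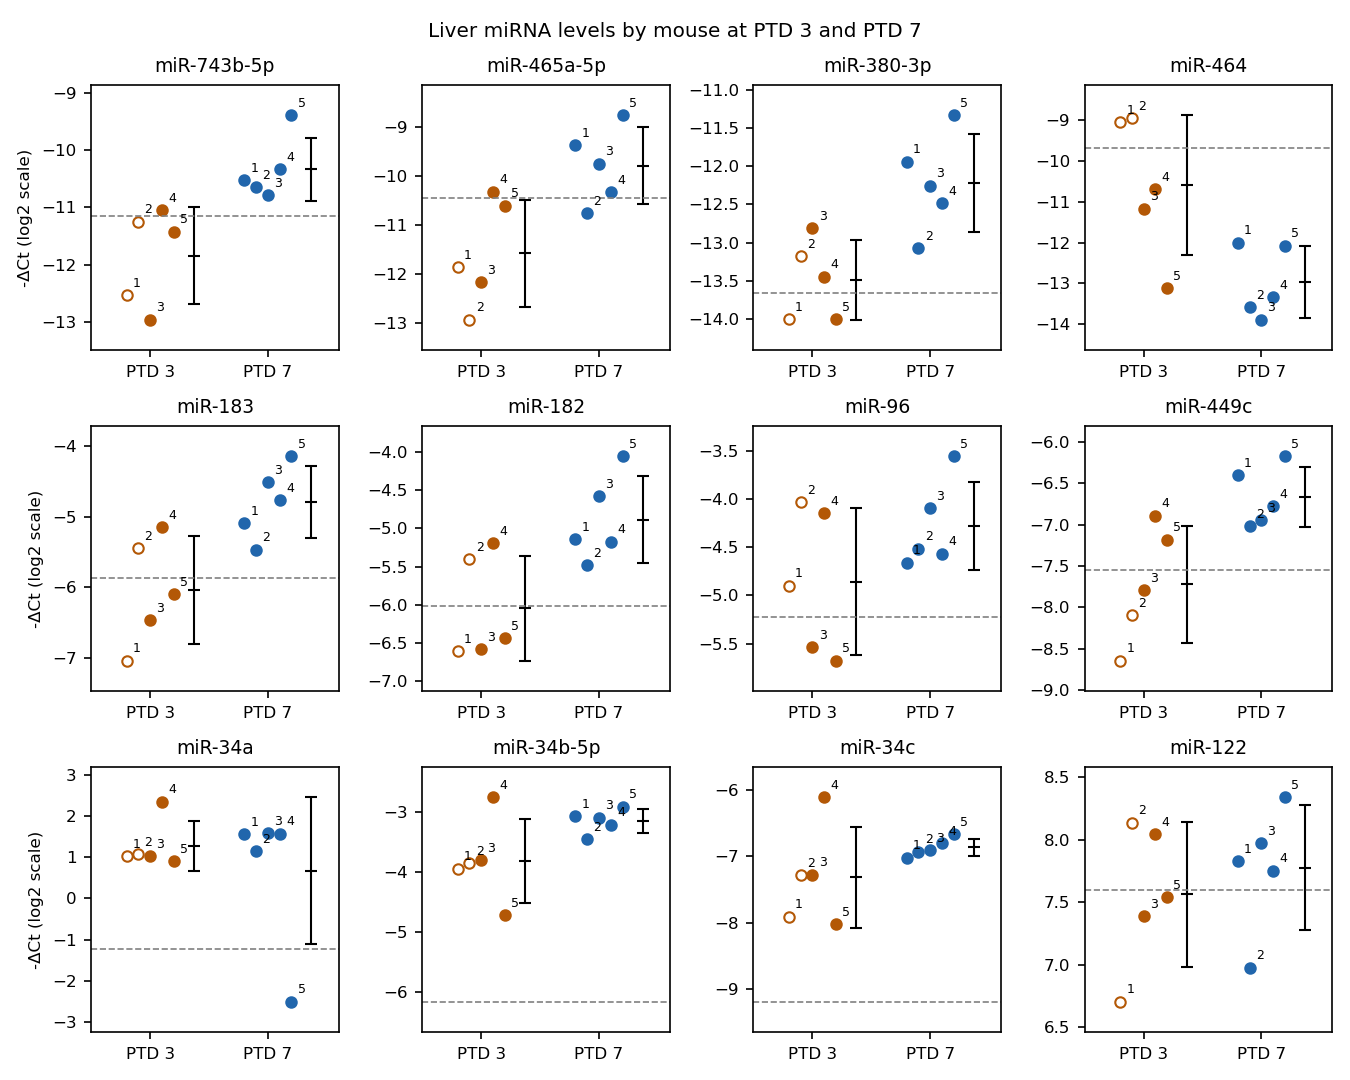
-ΔCt (log2 scale) of 12 miRNAs in the 5 mice of PTD 3 (brown, replicates 1 and 2 open) and the 5 of PTD 7 (blue), numbered by replicate, with the mean and SD as bars and the DMSO mean (n = 7) as a dashed line. Each panel has its own axis. miR-743b-5p has no overlap between the groups, miR-464 falls mainly from the open circles, and miR-34a has a single PTD 7 mouse at -2.51.

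Among the 194 more abundant miRNAs, whose mean Ct did not exceed 30 and where replicates spread less, none was a DEM in the fit of all 376. A fit of these 194 alone called miR-183, miR-182, miR-449c and miR-298, all higher at PTD 7, and none passed the Benjamini-Hochberg adjustment. The members of the miR-183 cluster are processed from the same precursor transcript and are best known from sensory cells. miR-183 was at -7.04, -5.45, -6.47, -5.15 and -6.10 at PTD 3 and at -5.09, -5.47, -4.51, -4.77 and -4.15 at PTD 7. miR-182 was at -6.60, -5.40, -6.58, -5.19 and -6.44 at PTD 3 and at -5.14, -5.48, -4.58, -5.17 and -4.06 at PTD 7. In both, replicate 2 of PTD 7 lay inside the range of PTD 3, and replicates 2 and 4 of PTD 3 were the highest of their group.

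The difference of miR-183 was 1.25 ± 0.41 (SE, limma p = 0.0104, adjusted p = 0.616, exact permutation p = 0.0238) and that of miR-182 was 1.16 ± 0.40 (SE, limma p = 0.0137, adjusted p = 0.616, exact permutation p = 0.0397), just outside the threshold for a DEM. miR-96, between them in the cluster, differed by 0.58 ± 0.40 (SE, limma p = 0.173, adjusted p = 0.885, exact permutation p = 0.206), from a mean of -4.86 to -4.28. Against replicates 3 to 5 of PTD 3 the 3 differences were 1.11 for miR-183, 1.18 for miR-182 and 0.84 for miR-96, and against replicates 1 and 2 they were 1.45, 1.12 and 0.18 in the same order. The median over the cluster stayed between 1.00 and 1.40 under the other normalizations, without replicate 1 of PTD 3 and within the shared run day. With the mean of the abundant miRNAs in place of the reference RNAs, miR-183 and miR-182 were DEMs, with differences of 1.11 and 1.03, and neither passed the Benjamini-Hochberg adjustment. At PTD 3 both means were within the SD of the controls, which were at -5.87 ± 0.97 for miR-183 and -6.01 ± 1.09 for miR-182 (SD, n = 7).

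The miR-34 and miR-449 family had no DEM between PTD 3 and PTD 7 among its 7 members, and 5 of the 7 were higher at PTD 7, with a median of 0.45. miR-34b-5p was at -3.94, -3.86, -3.81, -2.76 and -4.72 at PTD 3 and at -3.08, -3.45, -3.10, -3.21 and -2.91 at PTD 7, against -6.15 ± 0.36 in the controls (SD, n = 7). miR-34c, from the same precursor, was at -7.91, -7.28, -7.28, -6.11 and -8.02 at PTD 3 and at -7.02, -6.93, -6.91, -6.81 and -6.67 at PTD 7, against -9.19 ± 0.49. For both, the PTD 7 values lay within the range of PTD 3. The PTD 7 mice were close together, with an SD of 0.20 for miR-34b-5p and 0.13 for miR-34c, against 0.70 and 0.76 at PTD 3. The differences were 0.67 ± 0.35 (SE, limma p = 0.0821, adjusted p = 0.845, exact permutation p = 0.0635) for miR-34b-5p and 0.45 ± 0.36 (SE, limma p = 0.237, adjusted p = 0.885, exact permutation p = 0.23) for miR-34c. Against replicates 3 to 5 of PTD 3 they were 0.61 and 0.27, and against replicates 1 and 2 they were 0.75 and 0.73, in the same order.

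miR-34a was at 1.03, 1.08, 1.02, 2.35 and 0.91 at PTD 3 and at 1.56, 1.15, 1.58, 1.58 and -2.51 at PTD 7, with the controls at -1.24 ± 0.43 (SD, n = 7). Replicate 5 of PTD 7 was below every control, while its miR-34b-5p and miR-34c were the highest of PTD 7. The difference was -0.61 ± 0.73 (SE, limma p = 0.427, adjusted p = 0.934, exact permutation p = 0.683) with this array and 0.19 without it. Against replicates 3 to 5 of PTD 3 the difference was -0.76, and against replicates 1 and 2 it was -0.38, both with this array. Of the miR-449 members, which carry the same seed and are known from ciliated epithelium, miR-449c was at -8.65, -8.10, -7.79, -6.89 and -7.18 at PTD 3 and at -6.40, -7.02, -6.95, -6.77 and -6.17 at PTD 7. Its difference was 1.06 ± 0.37 (SE, limma p = 0.0147, adjusted p = 0.616, exact permutation p = 0.0238), with 1.71 against replicates 1 and 2 of PTD 3 and 0.63 against replicates 3 to 5. miR-34b-3p differed by 0.49, miR-449b by 0.35 and miR-449a by -0.20, none of them a DEM.

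Other abundant miRNAs with a small p were also higher at PTD 7 without being DEMs. miR-677 differed by 0.84 ± 0.29 (SE, limma p = 0.0147, adjusted p = 0.616, exact permutation p = 0.0238), from -6.91 ± 0.44 to -6.07 ± 0.27 (SD, n = 5 each). miR-715 differed by 1.00, miR-762 by 0.85, miR-298 by 1.34 and miR-155 by 0.79, with limma adjusted p values of 0.845. In the other direction the smallest p values belonged to miR-142-3p at -0.58, miR-362-3p at -0.54, miR-142-5p at -1.01 and miR-574-5p at -0.44, followed by miR-193b at -0.54, miR-193 at -0.57, miR-758 at -1.28 and miR-125a-3p at -0.51. miR-155 and both miR-142 arms are miRNAs of white blood cells, and they lay on opposite sides. Their limma adjusted p values were 0.845 or 0.885. miR-758 was at -0.21 against replicates 3 to 5 of PTD 3 and -2.87 against replicates 1 and 2, and miR-142-5p at -0.02 and -2.49.

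Among scarce miRNAs that were not DEMs, miR-654-3p of the Dlk1-Dio3 cluster differed by 2.23, past the fold threshold but not that on p, and was a DEM in 8 of 32 alternative settings. The fit of abundant miRNAs alone, among the 32, did not test miR-654-3p. miR-208, a heart muscle miRNA, and miR-302b, of embryonic stem cells, differed by 1.00 and 0.95. Against replicates 3 to 5 of PTD 3 these 2 were at 0.53 and 0.84, and against replicates 1 and 2 at 1.69 and 1.12. miR-654-3p was at -13.10 and -15.20 in replicates 1 and 2 of PTD 3, at -11.84, -10.33 and -10.76 in replicates 3 to 5, and between -10.54 and -9.83 at PTD 7. Its difference was 4.14 against the first 2 arrays and 0.96 against the other 3. The lower miRNAs, none of them a DEM, were miR-489 (-1.89), miR-147 (-0.79), miR-300 (-1.18), miR-291a-3p (-1.56), miR-681 (-1.52), miR-875-3p (-1.83), miR-149 (-1.53), miR-880 (-1.33) and miR-377 (-1.20). All 9 differences were smaller against replicates 3 to 5 of PTD 3, where they lay between -0.79 and -0.18, than against replicates 1 and 2, where they lay between -3.97 and -1.41. miR-149, for example, was at -0.18 against the first set and -3.54 against the second, and miR-681 at -0.20 and -3.50.

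The outcome of the comparison turned on which PTD 3 arrays were used. Against replicates 3 to 5 of PTD 3 limma called 0 DEMs among 376 miRNAs, with 14 at an unadjusted p under 0.05. Against replicates 1 and 2 it called 41 (10.9%), of which 10 were up-regulated (2.66%) and 31 down-regulated (8.24%), and 30 passed with a Benjamini-Hochberg adjusted p under 0.05 and a fold change above 2 (7.98%). The difference between these subsets was itself not tested, since the subsets follow the control wells and not the labels. Of the 31 down-regulated miRNAs, 29 had a mean Ct above 30, as did 8 of the 10 up-regulated ones.

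Some miRNAs split the PTD 3 group cleanly. miR-883b-5p, from the X-linked cluster, was at -8.62 and -8.36 in replicates 1 and 2 of PTD 3 and between -13.67 and -12.96 in the other 8 arrays of both groups. miR-489 was at -6.53 and -6.24 against -11.13 to -9.02, and miR-149 was at -7.39 and -7.09 against -11.78 to -9.75. Both replicates were above all of the other 8 arrays for 43 miRNAs, by over 4-fold for 7 of them, and below all 8 for 19, by over 4-fold for none. Of these 43 and 19 miRNAs, 33 and 11 had a mean Ct above 30, as had 182 of all 376. Among abundant miRNAs, miR-142-5p was at -4.56 and -3.25 against -6.74 to -6.14, while miR-142-3p from the other arm of the same hairpin was at 0.07 and 0.39 in these arrays and at -0.56, -0.62 and -0.76 in replicates 3 to 5. Both belong to the 7 listed white blood cell miRNAs, and the other 5 went the other way, with PTD 7 above replicates 1 and 2 of PTD 3 by 1.00 for miR-146a, 0.68 for miR-146b, 0.27 for miR-223, 0.23 for miR-150 and the most for miR-155.

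**Figure D4:**
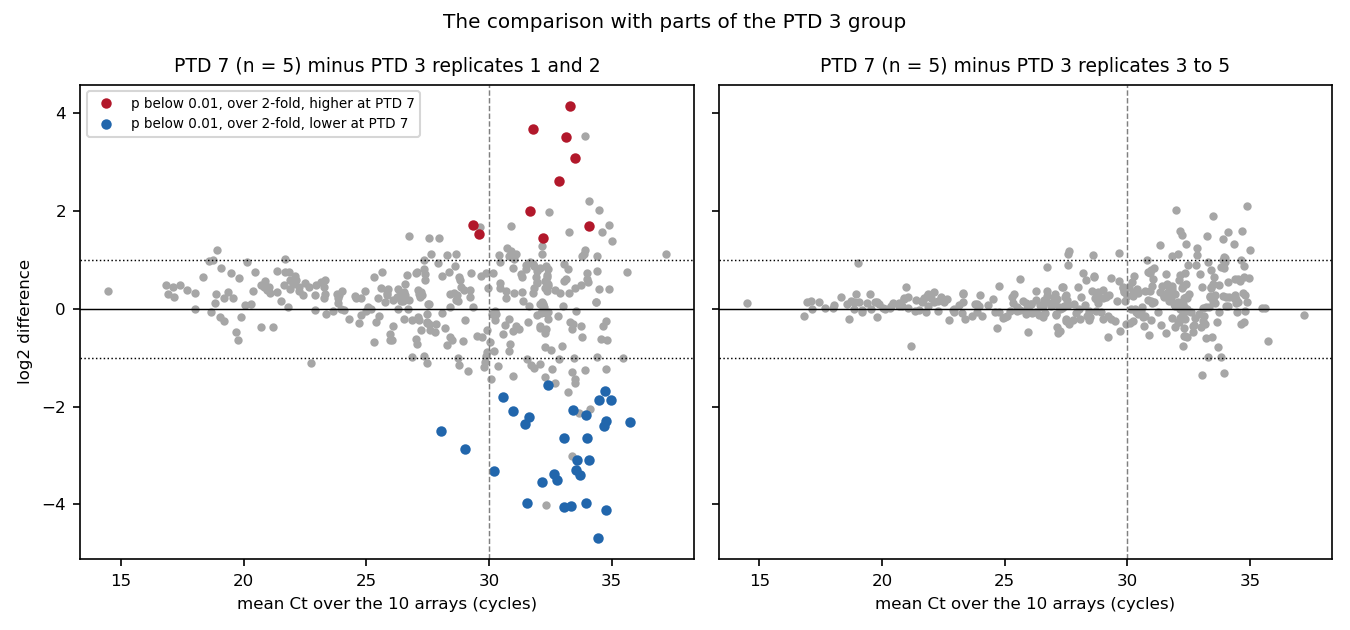
The log2 difference of PTD 7 (n = 5) minus replicates 1 and 2 of PTD 3 (left) and minus replicates 3 to 5 (right) against the mean Ct of the 10 arrays, with miRNAs past p 0.01 and 2-fold in red (higher at PTD 7) and blue (lower). miR-876-3p is left out because of a single well. The left panel holds 41 called miRNAs, mostly beyond a Ct of 30, and the right panel none.

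The spread within PTD 3 was the larger. The median SD over 376 miRNAs was 0.670 at PTD 3 and 0.527 at PTD 7, and 264 miRNAs had the larger SD at PTD 3. After each array was centred on its own median difference from the PTD 7 mean, 42 and 41 of the 182 miRNAs with a mean Ct above 30 were over 4-fold from that mean in replicates 1 and 2 of PTD 3, against 10, 7 and 12 in replicates 3 to 5 and 2 to 9 in the PTD 7 arrays. Each PTD 7 array was set against the mean of the other PTD 7 arrays.

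Lists of miRNAs by family, cluster and cell type held no DEM outside the X-linked and Dlk1-Dio3 clusters, and the miR-183 cluster described above had the largest median of the 26 lists, 1.16. All 12 miRNAs of the miR-17 cluster and its paralogues, which promote cell division, were higher at PTD 7, with a median of 0.28, beside 0.11 for all 376. Without replicate 1 of PTD 3 it was 9 of 12 with a median of 0.12, and with the mean of the abundant miRNAs 10 of 12 with 0.15. The let-7 family, which restrains growth genes, had 8 of 9 higher, with a median of 0.41 that was 0.03 without replicate 1 of PTD 3. All 5 of the miR-23, miR-27 and miR-24 clusters were higher, with a median of 0.34 that was 0.08 without that array. The 3 members of the miR-29 family, which target collagen messengers, were all lower, with a median of -0.35 that was 0.18 within the shared run day, beside 0.25 for all 376. The share of all miRNAs that were higher moved with the scaling, from 61.7% to 48.7% with the mean of the abundant miRNAs and to 72.3% without snoRNA142, and it was 51.9% without replicate 1 of PTD 3.

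Lists for cell types other than hepatocytes held no DEM. Of the 7 white blood cell miRNAs 5 were higher, with a median of 0.22. It was 0.0052 without replicate 1 of PTD 3, -0.02 against replicates 3 to 5 and -0.08 within the shared run day, with 4, 3 and 3 of the 7 higher. Their summed level (log2 of the summed 2^-ΔCt, which adds assays of unlike efficiency) lay between 1.19 and 1.77 at PTD 3 and between 1.00 and 2.31 at PTD 7. The 3 erythroid miRNAs, miR-144, miR-451 and miR-486, were higher by 0.41, 0.49 and 0.28, with a summed level between 2.02 and 3.74 at PTD 3 and between 2.60 and 3.96 at PTD 7. miR-451 was at 3.37, 3.74, 3.06, 2.24 and 2.01 at PTD 3 and at 3.34, 2.59, 3.95, 3.29 and 3.68 at PTD 7. All 3 were higher in replicates 1 and 2 of PTD 3 than in replicates 3 to 5, and the median of the list was 0.89 against replicates 3 to 5, -0.32 against replicates 1 and 2, 0.61 without replicate 1 and 1.36 within the shared run day. The 5 endothelial and stellate cell miRNAs had a median of 0.17 with 4 higher, which was 0.04 with 3 higher without replicate 1 of PTD 3 and 0.43 with 5 higher within the shared run day. The 5 of the epithelial miR-200 family had a median of -0.19 with 1 higher, which within the shared run day was 0.25 with 4 higher, the median of all 376 there being 0.25 too. The part of cell composition in the differences was not tested.

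The medians of the remaining families were 0.10 for miR-192, miR-194 and miR-215, 0.13 for the miR-130 and miR-301 family, -0.04 for miR-221 and miR-222, 0.22 for the miR-15 and miR-16 family, 0.08 for the miR-30 family, 0.15 for miR-26 and miR-101, 0.32 for the miR-181 family and 0.13 for the miR-148 and miR-152 family. Without replicate 1 of PTD 3 they were -0.07, 0.12, -0.13, 0.10, 0.0082, 0.05, 0.10 and -0.07 in the same order, where the median of all 376 was 0.0067. miR-26 and miR-101 were at -0.04 against replicates 3 to 5, and within the shared run day the 8 medians lay between 0.12 and 0.65. For tissues other than liver they were -0.26 for 8 nervous system miRNAs, 0.08 for 5 of muscle, 0.76 for 4 of pancreas, 0.36 for 13 of embryonic stem cells and 0.20 for 16 of the Sfmbt2 intron cluster. The nervous system list had 3 of 8 higher, against 7 of 8 with a median of 0.45 within the shared run day, where 76.9% of all 376 were higher. The Sfmbt2 list had a median of -0.10 against replicates 1 and 2 and 0.02 within the shared run day, and the muscle list had 3 of 5 higher, against 1 of 5 with a median of -0.12 without replicate 1 of PTD 3. The pancreas list had 1 member with a mean Ct of at most 30, miR-375, at 0.45, and its largest difference, 2.26 for miR-216a, included a Ct of 39.1 in replicate 1 of PTD 3. The hepatocyte miRNA miR-122 differed by 0.21, and by -0.00278 without that array.

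**Figure D5:**
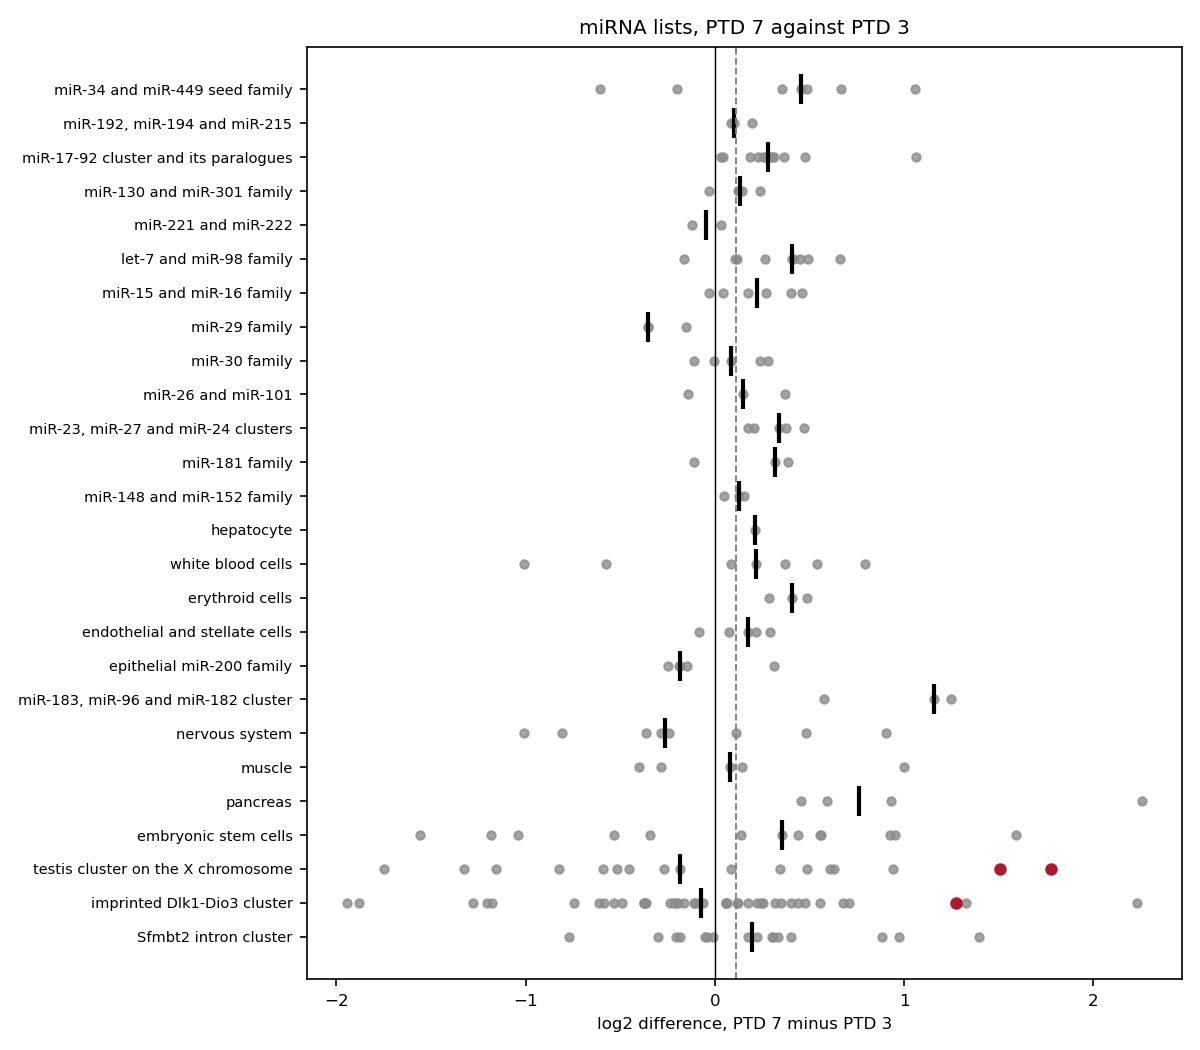
The log2 difference of PTD 7 minus PTD 3 for the members of 26 miRNA lists (grey points, DEMs in red), with the list median as a black bar and the median of all 376 miRNAs, 0.11, as a dashed line. The 3 members of the miR-183 cluster lie between 0.58 and 1.25.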

How the data were processed

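Enriched small RNA was reverse transcribed and measured by SYBR Green PCR on 384-well arrays, 40 cycles each. The authors deposited the Ct of every well, a cycle number on a log2 scale, as calculated with SDS 2.3 at a fixed fluorescence threshold of 0.15 and without normalization. Some deposited columns mix these Ct values with text for wells without a Ct, and were treated as the same unit. Wells were named from the study's table of miRNAs per well. Wells listed as Undetermined, 4 in the 10 arrays, were missing, so that miR-290-5p, miR-299, miR-361 and miR-384-5p each had 4 arrays in a group. The methods' reference RNAs and thresholds were kept, and -ΔCt was fitted in limma (3.58.1, R 4.3.3; two-sided, all 376 miRNAs, no covariate) in place of their t-test, with Benjamini-Hochberg adjustment over all 376. Figures used matplotlib (3.10.9).

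Named miRNAs are the DEMs filled up to 10 per direction by the smallest p, the 8 smallest p per direction at a mean Ct of at most 30, and members of 26 lists. The members and lists were chosen with earlier results of these data known. Labels call the samples separate mice, and p values measure their spread. The scripts were tested on simulated data. The number of arrays limits the precision. Alternatives covered the test, normalization, low and missing values, blocks, covariate, weights and left-out samples.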

Additional observations from a re-analysis of the deposited data

Results flagged for a closer look

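In 84 groups of 5 samples, 4 held a value whose gap to its neighbour was large for the range of the group, where chance gives about 4.2. miR-34a in replicate 5 of PTD 7 was at -2.505 on the -ΔCt scale, against 1.15 to 1.58 in the other 4 mice. miR-34a in replicate 4 of PTD 3 was at 2.349, against 0.911 to 1.08 in the others. miR-654-3p in replicate 2 of PTD 7 was at -10.54, with the others between -9.952 and -9.83. miR-34b-3p in replicate 3 of PTD 7 was at -8.21, with the others between -8.801 and -8.702. The cause of these values was not tested.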

How the results depend on the processing

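The count of 4 DEMs (3 up-regulated, 1 down-regulated) was 1 (1 and 0) with the methods' t-test on ΔCt (miR-380-3p), with that t-test on 2^-ΔCt (miR-654-3p, not among the 4) and with the exact permutation test (miR-743b-5p), each with 0 after Benjamini-Hochberg adjustment, and 0 (0 and 0) with limma adjusted p values. It was 5 (5 and 0) in a single fit of all groups, 6 (5 and 1) with the median Ct of the array, the mean of abundant miRNAs or without snoRNA142, 1 (1 and 0) without snoRNA202, 4 with 0 down-regulated among the 194 abundant miRNAs (miR-183, miR-182, miR-449c and miR-298), 8 (7 and 1) within the shared run day, where a single PTD 3 array is assumed to vary like PTD 7 and where, as with the run day as a block (5), none of the 4 DEMs was among those called and the miR-876-3p well was, and 11 (11 and 0) with array weights. It was 0 (0 and 0) against replicates 3 to 5 of PTD 3 and 41 (10 and 31) against replicates 1 and 2. With the control well difference as a covariate it was 3. With Ct values above 35 set to 35 it was 5, and miR-380-3p was not among them. Leaving out each sample gave 0 to 12 DEMs, 0 to 11 up-regulated and 0 to 2 down-regulated, with 0 without replicate 1 and 12 without replicate 4 of PTD 3, 7 without replicate 2 of PTD 7, 2 without replicate 1 or 4, and 1 without replicate 3 or 5 of PTD 7. With the miR-876-3p well of replicate 5 of PTD 3 missing, an alternative chosen after the data were seen, 4 DEMs were called.

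Differences turned positive with the run day as a block, which equals the comparison within the shared day, for miR-464 (0.14), miR-300 (0.34), miR-875-3p (0.68), miR-880 (0.061), miR-142-5p (0.15), miR-193 (0.27), miR-758 (1.49) and miR-449a (0.45), with array weights for miR-758 (0.069), miR-34a (0.087) and miR-449a (0.36), and for miR-449a against replicates 1 and 2 of PTD 3 (0.046) and without replicate 4 of PTD 3 (0.13). Leaving out each sample moved miR-34a from -0.83 to 0.19 (without replicate 5 of PTD 7), miR-449a from -0.46 to 0.13 and miR-122 from -0.00278 (without replicate 1 of PTD 3) to 0.41. The cause was not tested. Over 32 alternatives, miR-743b-5p was called in 20, miR-465a-5p in 16, miR-380-3p in 14, miR-464 in 13, miR-183 in 10 and miR-182 in 8. The fit of the 194 abundant miRNAs, among the 32, did not test the 4 DEMs. Many of the 32 refit nearly the same data, such as those without a sample or a reference RNA, and are not independent.

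With the replicate number as a block, 3 DEMs were called (3 up-regulated, 0 down-regulated). The labels' numbers name different mice, and the deviations of same-numbered samples had correlations of 0.116, -0.121, 0.0757, -0.0876 and 0.0731, with 3 of 5 samples correlating best with their own number, so that the numbers were not taken as a pairing.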

Other observations

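In replicate 5 of PTD 3 the well of miR-876-3p had a Ct of 9.78, which put it 26.2 above the PTD 7 mean on the log2 scale, while the other 9 arrays lay between -15.01 and -12.15. miR-361 was listed without a Ct in replicate 1 of PTD 7, against a mean Ct of 27.1 in the other arrays. Over the 194 abundant miRNAs, the median difference of an array from the PTD 7 mean was -0.62 for replicate 1 of PTD 3, on the log2 scale. It was -0.72 for replicate 2 of PTD 7 and 0.61 for replicate 5 of PTD 7, each against the mean of the other PTD 7 arrays.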
